A study of Tupaia belangeri with 2 samples.

Results

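The cells described here were red blood cell precursors that carried embryonic in place of adult globin transcripts, found among the single-cell transcriptomes of whole brains from 2 tree shrew (Tupaia belangeri) embryos of 4 to 5 postconceptional weeks. There was 1 library of the 10x Chromium 3′ kit per embryo, no treatment and no second condition, and the protocol states that dura mater and blood vessels were taken off before the tissue was dissociated. A barcode, which stands for 1 captured cell, was counted as primitive erythroid when 8 globin genes (HBB, HBA1, HBA2, HBQ1, HBE1, HBG1, HBZ and HBAZ) held at least 10% of its unique molecular identifiers (UMIs, counted RNA molecules) and when the 4 embryonic ones (HBE1, HBG1, HBZ and HBAZ) held at least 50% of these globin UMIs. Of 18926 barcodes, 345 met the rule, 221 of 9241 in embryo 1 and 124 of 9685 in embryo 2. The libraries held 41868023 and 38077767 UMIs, of which 28.7% and 13.6% were globin. Barcodes that passed the globin minimum with less than 50% embryonic globin served as the comparison and are called definitive erythroid cells (1680 and 607), and all others are called remaining barcodes (7340 and 8954).

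Red cells arise in successive waves in mammals. Primitive erythroid cells form in the yolk sac, enter the blood while still nucleated and carry embryonic haemoglobin, built from epsilon-type and zeta-type chains. Definitive cells come later from the fetal liver and bone marrow and carry fetal or adult chains, and in most mammals other than simian primates the gamma-type gene belongs to the embryonic set. Both kinds pack the cell with haemoglobin, take up iron through the transferrin receptor and build haem, and lose RNA and organelles as they mature.

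Primitive cells were a minority of the erythroid cells of both embryos. They made up 11.6% of the barcodes with at least 10% globin UMIs in embryo 1 (exact 95% binomial interval 10.2 to 13.2%) and 17.0% in embryo 2 (14.3 to 19.9%), with a mean of 14.3% ± 3.77 (SD, n = 2 embryos). As a share of all barcodes they made up 2.39% (2.09 to 2.72%) and 1.28% (1.07 to 1.52%). Embryo 1 was higher in the second share and embryo 2 in the first. The intervals cover counting error only, and how much blood stayed in each dissected brain is not known. Of 18 barcode sequences that occurred in both libraries, 1 belonged to a primitive cell.

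The classes did not grade into each other. Since the embryonic share chose the cells, its values are a description: the lowest in a primitive cell was 76.1% in embryo 1 and 89.7% in embryo 2, the medians were 97.7% and 98.5%, and 284 of the 345 cells were above 95%. The highest share in a definitive cell was 7.15% in embryo 1 and 0.394% in embryo 2. No barcode with at least 10% globin UMIs had an embryonic share between 10% and 75%, so the limit of 50% fell in an empty range. The limit on total globin did cut through a continuous range. Primitive cells started at 10.2% and 10.8% globin UMIs, 36 of them lay between 10% and 15%, and 39 barcodes with mostly embryonic globin lay just outside, between 5% and 10% (highest 9.78% and 9.72%).

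**Figure D1:**
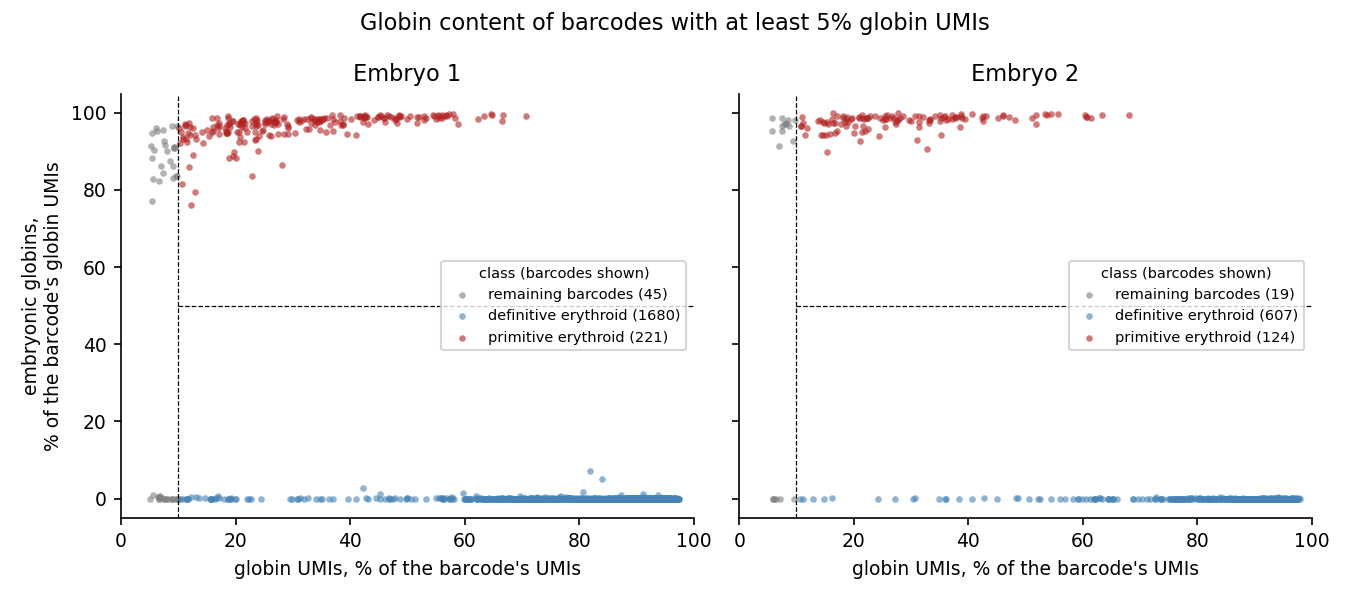
Each point is a barcode with at least 5% globin UMIs in embryo 1 (left) or embryo 2 (right), placed by globin UMIs as a percentage of its UMIs (x axis) and embryonic globins as a percentage of its globin UMIs (y axis), with the dashed lines at 10% and 50%. Primitive cells (red, 221 and 124) lie at the top left between 10.2% and 70.7% globin, definitive cells (blue, 1680 and 607) lie along the bottom and mostly at the right, and the space between them is empty.

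Primitive cells held a much smaller part of their RNA as globin than definitive cells did. The median globin share of a primitive cell was 28.1% in embryo 1 and 27.1% in embryo 2, with highest values of 70.7% and 68.1%, against medians of 90.7% and 92.6% in definitive cells. Total UMIs per cell were lower in primitive cells (medians 2074 and 1580, range 506 to 10878 and 510 to 7859) than in definitive cells (medians 8252.5 and 9901). Other RNA showed the opposite order, with median non-globin UMIs of 1430 and 1172 in primitive cells and 521.5 and 548 in definitive cells. The classes were defined by globin UMIs, so these are levels without a test.

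The range of other transcripts was also wider. Primitive cells had medians of 515 and 442 genes with a UMI, and definitive cells 199.5 and 179. When every barcode was thinned to 500 UMIs, globins included, the medians were 202 and 194 genes in primitive cells, 39 and 30 in definitive cells and 325 and 335 in the remaining barcodes, an order that the globin share itself can set. When instead the non-globin UMIs were thinned to 300 per barcode, the medians were 178 and 175 genes in primitive cells, 142 and 127 in definitive cells and 219 and 225 in the remaining barcodes. Shallower barcodes were left out of the second measure, 0 and 1 of the primitive and 443 and 173 of the definitive cells. Primitive cells lay between the other groups in both measures and both embryos.

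Nearly all globin UMIs counted in primitive cells came from a pair of beta-type genes. HBE1, the epsilon chain, held 57.5% of the globin UMIs in embryo 1 (111860 UMIs) and 60.4% in embryo 2 (49964 UMIs). HBG1, the gamma chain, held 40.3% (78429 UMIs) and 37.9% (31324 UMIs). By the running numbers in the identifiers of the gene models, HBE1, HBG1 and HBB follow each other on chromosome 18, and HBQ1, HBA2, HBA1, HBAZ and HBZ follow each other on chromosome 2.

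HBB, the adult beta chain, was low in primitive cells, close to its level in barcodes of other cell types. A primitive cell had a median of 8 HBB UMIs in embryo 1 and 2 in embryo 2, a remaining barcode 9 and 3, and a definitive cell 7442 and 9065. The mean was slightly higher in primitive cells than in remaining barcodes (11.9 against 10.1 in embryo 1 and 3.95 against 3.21 in embryo 2). As a share of all UMIs HBB was higher in primitive cells as well (0.482% against 0.266% and 0.191% against 0.0896%), at median totals of 2074 and 1580 UMIs against 3376 and 3132. Definitive cells in turn held few embryonic transcripts, with HBE1 at 0.0123% of their globin UMIs in embryo 1 and 0.00111% in embryo 2.

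The alpha-type genes made up little of the counted globin in either class. Together they held 0.780% and 1.16% of the globin UMIs of primitive cells (embryos 1 and 2) and 0.802% and 1.11% of those of definitive cells. A red cell needs alpha-type and beta-type chains in balance, and the protein was not measured. The zeta chains, the embryonic alpha-type subunits, had few UMIs: HBZ had 153 and 81 in primitive cells and HBAZ 142 and 89. The far more numerous definitive cells had 2 UMIs of each in embryo 1 and 0 in embryo 2.

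Adult alpha transcripts were more numerous in primitive cells than their HBB counts would bring at the ratio seen in definitive cells. HBA1 had 237 and 198 UMIs where the ratio to HBB in definitive cells would give 9.26 and 2.62, and HBA2 had 307 and 251 where it would give 6.66 and 1.96. HBQ1, the theta chain, had 678 and 337 UMIs where that ratio would give 5.41 and 0.902. The zeta chains held 35.2% and 27.5% of the sum of zeta and adult alpha (HBA1 and HBA2) UMIs in primitive cells and 0.00569% and 0% in definitive cells. HBA1 and HBA2 are near-identical copies in mammals, as the zeta genes can be, so the split of reads between such copies is uncertain.

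**Figure D2:**
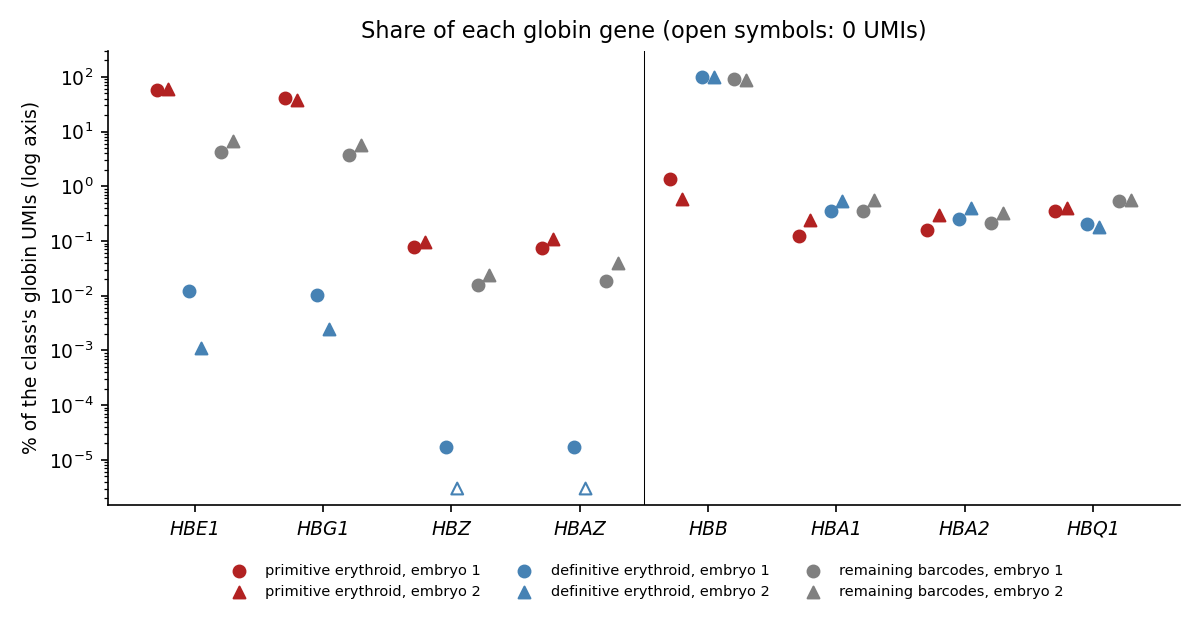
Share of each globin gene in the globin UMIs of a class (y axis, percent, log scale) for primitive cells (red), definitive cells (blue) and remaining barcodes (grey), with circles for embryo 1, triangles for embryo 2 and open symbols for 0 UMIs. HBE1 and HBG1 hold 57.5% and 40.3% in the primitive cells of embryo 1, where HBB holds 1.36%, while HBB holds 99.2% in its definitive cells.

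Primitive cells differed widely among themselves in the balance of epsilon and gamma chains. HBE1 held a median of 54.4% of the HBE1 and HBG1 UMIs of a cell in embryo 1 and 60.1% in embryo 2. The range ran from 0.909% to 100% and from 2.60% to 100%, with 30 cells under 25% and 58 over 75% among the 345. The SD over cells was 20.2 and 22.0 percentage points, where counting error alone gives 2.65 and 2.82 at these depths (medians of 536 and 449.5 UMIs of both genes per cell). The distributions of the embryos overlapped over nearly their whole range and had their bulk around the middle, with few cells at either end.

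**Figure D3:**
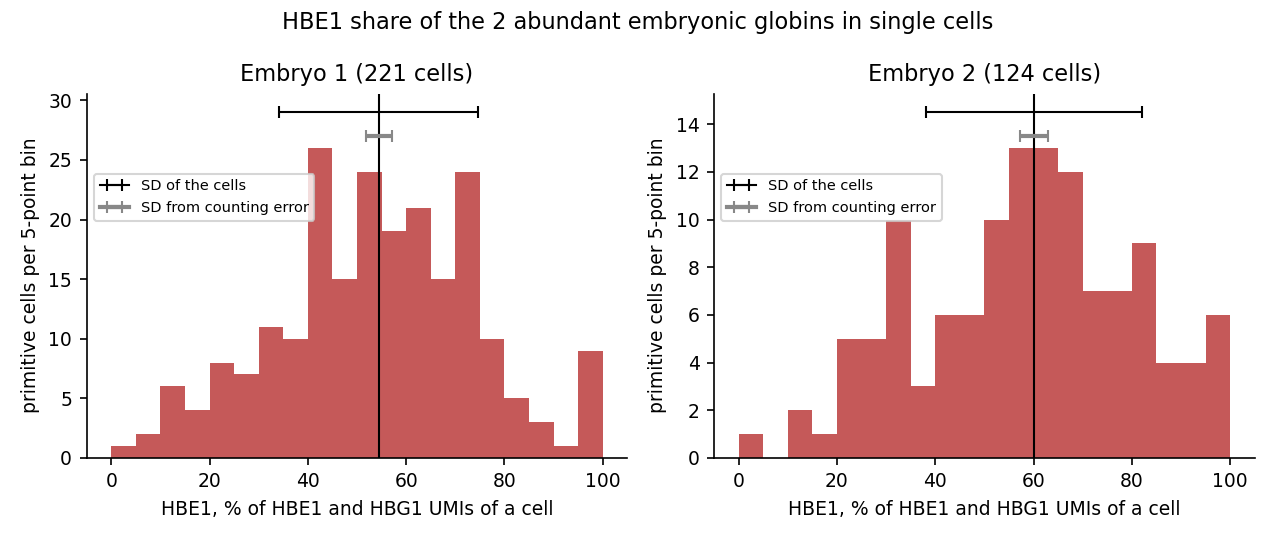
Number of primitive cells (y axis) by the percentage of HBE1 in the HBE1 and HBG1 UMIs of a cell (x axis, bins of 5 points) for embryo 1 (left) and embryo 2 (right), with the median as a vertical line, the SD over cells as a black bar and the SD from counting error as a grey bar. The cells spread from under 1% to 100%, and the SD of 20.2 and 22.0 points is wider than the 2.65 and 2.82 points from counting error.

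The globin share of a cell was related to its HBE1 share only in part. When the cells of each embryo were ordered by HBE1 share and divided at the middle, the median globin share was 38.3% among the HBE1-richer cells and 23.6% among the HBG1-richer cells of embryo 1, and 32.5% and 25.4% in embryo 2. The order did not extend to the top of the range, since the 10 cells of each embryo with over 90% HBE1 had median globin shares of 21.8% and 24.8%, below the medians of all primitive cells. Over the 221 and 124 cells, Spearman's rho between both shares was 0.38 and 0.18, and the shares have globin UMIs in common. TFRC, the transferrin receptor, which brings iron into the cell and falls late in red cell maturation, was at 61.7 and 114 counts per 1000000 non-globin UMIs in the HBE1-richer cells and at 178 and 303 in the HBG1-richer cells. The TFRC values rest on 11 and 10 against 31 and 26 UMIs. SOD1, a superoxide dismutase, was also lower in the HBE1-richer cells (4256 and 5089 against 5478 and 6677). The HBE1-richer cells were the higher ones for PF4, a platelet chemokine (286 and 263 against 109 and 151), EIF5A2, a translation factor (964 and 2104 against 506 and 781), AHSP, the alpha chain chaperone (264 and 274 against 126 and 128), and ALAS2, the first enzyme of haem synthesis (791 and 732 against 655 and 571). These genes were chosen after the values had been seen and have no test, since the cells of an embryo are not replicates. The AHSP values rest on 47 and 24 against 22 and 11 UMIs. In embryo 2, 1 cell held 31.4% of the AHSP UMIs of primitive cells.

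The label of these cells came with 2 blood group genes that the rule did not use, ICAM4 and RHCE. They were chosen with earlier results of these data known, so their levels are a description and not an independent check. From here on, a level is the number of UMIs per 1000000 non-globin UMIs, summed over the cells of a class in an embryo, which sets the globins aside, and paired values are those of embryo 1 and embryo 2. ICAM4, the Landsteiner-Wiener blood group adhesion protein, was at 375 and 364 in primitive cells, at 17.0 and 15.3 in definitive cells and at 0.467 and 0.156 in the remaining barcodes. RHCE, which carries Rh antigens, was at 332 and 531 in primitive cells, at 149 and 337 in definitive cells and at 0.431 and 0.218 in the remaining barcodes. For ICAM4 the primitive cells of both embryos lay far above both other groups. For RHCE the primitive cells were the higher ones within each embryo. Across embryos the erythroid classes overlapped, since the definitive cells of embryo 2 were as high as the primitive cells of embryo 1. Several erythroid landmarks (GATA1, EPB41 and RHD) could not be checked, because no gene model bears these names.

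Markers of other brain cells were lower in primitive cells than in definitive cells. The 9 neuron markers named in the annotation summed to 786 and 710 in primitive cells, 1485 and 1391 in definitive cells and 2485 and 2972 in the remaining barcodes, and STMN2, a growth cone protein, was the most abundant of them (414 and 294 in primitive cells). The 9 radial glia markers summed to 295 and 392 in primitive, 1010 and 864 in definitive and 1736 and 1438 in remaining barcodes, led by VIM, with HES5 and HOPX at 0 in primitive cells. The 5 choroid plexus markers came to 90.8 and 139 in primitive cells, all from TTR, the transthyretin of this epithelium, against 876 and 388 in definitive cells, and CLIC6, FOLR1, KCNE2 and AQP1 were at 0.

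Markers of immune, vessel and meningeal cells rested on few UMIs in primitive cells. Microglia and macrophage markers had 1 and 2 UMIs in all in primitive cells, with CSF1R, CX3CR1, TYROBP, CD68 and MRC1 at 0, against 53 and 44 UMIs in definitive cells. Endothelium and pericyte markers had 7 and 4 UMIs, most of them from EGFL7, with PECAM1, CDH5, ESAM, PDGFRB, RGS5 and KCNJ8 at 0. As summed levels these vessel markers were at 19.9 and 23.1 in primitive cells, 57.8 and 157 in definitive cells and 24.5 and 28.0 in the remaining barcodes, so primitive cells were close to the remaining barcodes and definitive cells above both. Meningeal fibroblast markers had 6 and 4 UMIs, led by COL3A1, with LUM and PDGFRA at 0. Of the megakaryocyte and platelet markers, PF4, a platelet chemokine, was at 199 and 208 in primitive cells, 45.0 and 38.2 in definitive cells and 0.610 and 0.748 in the remaining barcodes, while GP1BA, TUBB1 and VWF were at 0 in primitive cells. All 7 mast cell and granulocyte markers were at 0 in primitive cells, against 13 and 0 UMIs in definitive cells. UMIs of at least 3 different markers of neurons, radial glia, microglia, vessels, meninges or choroid plexus were found in 27 (12.2%) and 13 (10.5%) primitive cells, 247 (14.7%) and 70 (11.5%) definitive cells, and 84.8% and 85.5% of the remaining barcodes. The part of this RNA in the comparison that follows was not tested, except where a value without such barcodes is given.

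The comparison of primitive with definitive cells asked which genes other than globins set the classes apart. UMIs were summed per class and embryo, and edgeR's quasi-likelihood test with the embryo as a block and Benjamini-Hochberg adjustment was run on 3505 genes at a threshold of 0.05. It called 821 genes higher in primitive cells (23.4%) and 800 lower (22.8%), so 46.2% of the tested genes were called in all, and the median log2 fold change was -0.07. Of the calls, 818 and 795 had the same direction in embryo 1 and embryo 2. The fit holds 4 sums from 2 embryos with 1 residual degree of freedom. Its p-values rest on how far the difference between the classes varied between these 2 embryos, with information shared over genes. In such sums fewer cells of a state cannot be told apart from less RNA per cell.

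The remaining barcodes placed the calls on a wider scale. Among the genes higher in primitive cells, 282 (34.3%) were also at least 2-fold above the remaining barcodes in both embryos, and 65 at least 10-fold, while 56 (6.82%) were higher still in the remaining barcodes. Among the genes lower in primitive cells, 141 (17.6%) were at least 2-fold higher in definitive cells than in the remaining barcodes, and 79 at least 10-fold. For 574 of those 800 (71.8%) the remaining barcodes were higher than the definitive cells in both embryos, as they were for the brain cell markers above. When all genes with a higher level in the remaining barcodes than in both erythroid classes were left out before the fit, 302 and 384 of 1441 genes were called higher and lower with edgeR's trimmed mean of M-values (TMM) scaling, and 708 and 241 with library totals in its place.

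Barcodes with UMIs of 3 or more markers of other cells bore on this comparison unevenly. They held 44.6% and 45.6% of the non-globin UMIs of definitive cells but 23.9% and 22.4% of those of primitive cells. Without them 2139 genes were tested, and the scaling then set the split of the calls, with 582 higher and 656 lower under TMM (27.2% and 30.7%) and 1048 and 338 under library totals (49.0% and 15.8%; median log2 fold changes of -0.03 and 0.77, a shift of 0.80). With all barcodes the same change of scaling shifted the median by 0.04 and gave 875 and 793 calls. Of the 208 higher and 180 lower calls larger than 2 on the log2 scale, 160 and 99 were still tested without those barcodes. All of the tested ones kept their direction under both scalings, and 159 and 99 passed the threshold. The other large calls had no test without those barcodes. Of the 382 and 425 calls between 1 and 2, 312 and 225 were tested, and 257 and 154 passed under both. Of the 231 and 195 calls of at most 1, 230 and 183 were tested, and 121 and 54 passed under both. Below, values without those barcodes are given under both scalings for named genes that changed side.

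**Figure D4:**
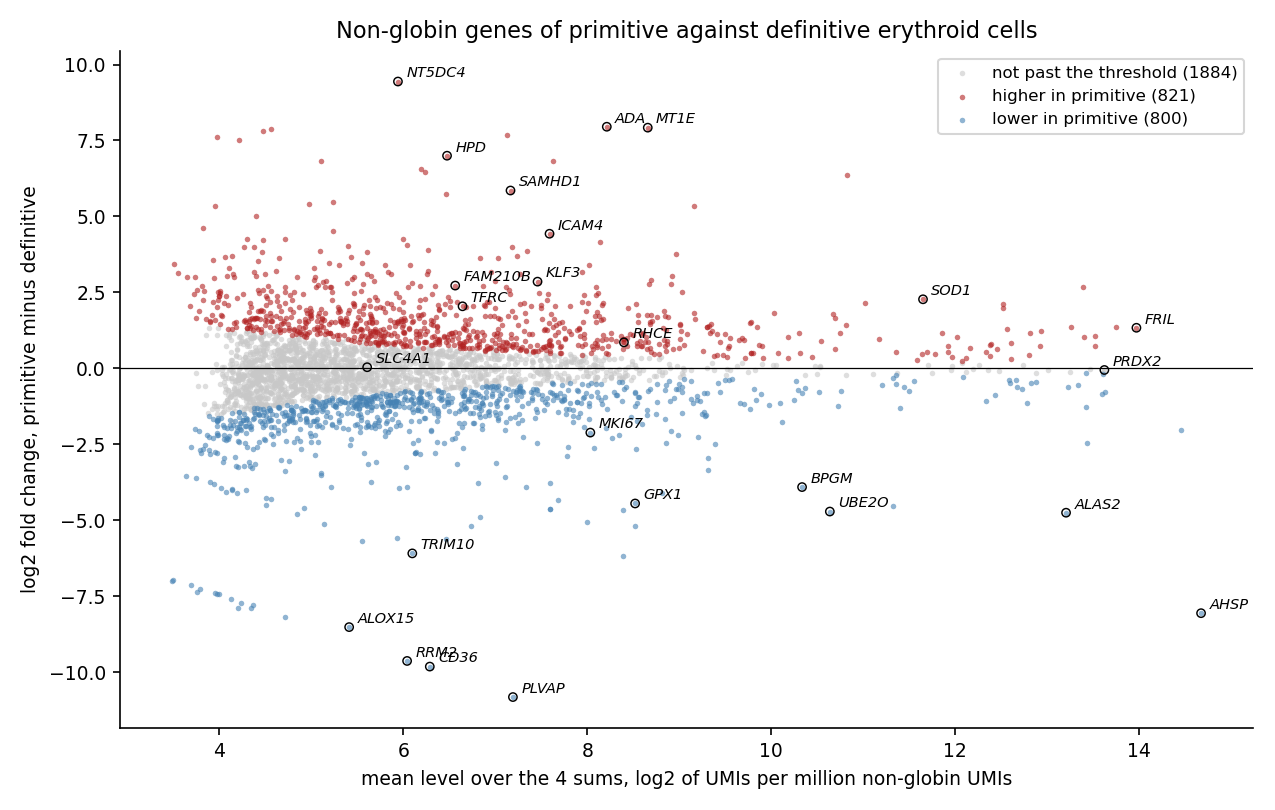
Log2 fold change of primitive minus definitive erythroid cells (y axis) against mean level (x axis, log2 of UMIs per 1000000 non-globin UMIs) for the 3505 genes tested, with 821 genes higher in primitive cells in red, 800 lower in blue, the others in grey and 25 genes of the text ringed. Fitted values of genes with 0 UMIs in a class, such as NT5DC4 at the top and PLVAP at the bottom, depend on the prior count of the fit, whereas AHSP at -8.06 and ALAS2 at -4.75 are backed by UMIs in both classes.

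The genes with the highest log2 fold changes were hardly detected in definitive cells. ADA, adenosine deaminase of purine breakdown, had 128 and 142 UMIs in primitive cells (levels of 363 and 820) and 3 and 1 in definitive cells (1.83 and 1.53), with remaining barcodes at 2.01 and 2.52. The classes did not overlap, and the log2 fold change was 7.95 (SE 0.33, edgeR adjusted p = 7.26e-14). NT5DC4, of the nucleotidase-domain family, had 46 and 20 UMIs in primitive cells and 0 in definitive cells. Against the limit of 3 UMIs over both embryos that a count of 0 allows, it was at least 96.2-fold higher (edgeR adjusted p = 2.17e-09, DESeq2 adjusted p = 0.0840).

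Further genes of this group had very few UMIs in definitive cells. SULT1A2, a sulfotransferase, was at 349 and 208 in primitive cells and had 3 UMIs in definitive cells of both embryos together, a pooled ratio of 232 (exact 95% counting interval 77.9 to 1136). HPD, an enzyme of tyrosine breakdown, was at 216 and 139, also against 3 UMIs (ratio 146, interval 48.5 to 719). SLC39A8, a zinc and manganese importer, was at 145 and 144 (ratio 111 against 3 UMIs, interval 36.5 to 549), and NDRG2 at 119 and 179 (ratio 106 against 3 UMIs, interval 35.0 to 528).

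ARHGAP9, a GTPase-activating protein of blood cells, was at 358 and 427 in primitive and 2.43 and 4.58 in definitive cells (log2 fold change 6.82, SE 0.32, edgeR adjusted p = 6.46e-13). SAMHD1, which degrades deoxynucleotides, was at 244 and 323 against 5.48 and 1.53 (log2 fold change 5.85, SE 0.34, edgeR adjusted p = 2.75e-11). TFF3, a trefoil peptide, was at 176 and 173 against 4.26 and 0 (log2 fold change 5.75, SE 0.42, edgeR adjusted p = 9.08e-10). In each of these genes the lower primitive value was above the higher definitive value by more than 10-fold.

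The metallothioneins MT1E and MT1H, which bind zinc and copper, passed the same threshold but came from few cells. MT1E was at 565 and 1045 in primitive and 2.43 and 3.05 in definitive cells, and MT1H at 738 and 1506 against 21.9 and 24.4 (log2 fold changes 7.92 and 5.35, edgeR adjusted p = 7.08e-15 and 2.30e-14). UMIs of MT1E were found in 28 of 221 and 17 of 124 primitive cells, and 1 cell held 17.1% of them in embryo 1 and 46.4% in embryo 2. Without that cell the levels were 471 and 566. MT1H was found in 33 and 13 cells, with 26.9% and 53.3% of its UMIs in 1 cell, and was at 543 and 712 without it. Both stayed above definitive cells without these cells.

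Genes of the red cell membrane and blood groups were called in both directions. Of 29 genes listed, 26 had a model, 16 were tested, 4 were higher and 3 lower in primitive cells, near the 23.4% and 22.8% of all genes, with a median log2 fold change of 0.01. Without barcodes with markers of other cells 1 was higher and 8 lower under TMM (27.2% and 30.7% of all genes), and 5 were higher and 4 lower under library totals (49.0% and 15.8% of all genes), with medians of -0.74 and 0.06. ICAM4 rose most (log2 fold change 4.43, SE 0.24, edgeR adjusted p = 8.36e-12), followed by ERMAP, the Scianna blood group protein (2.57, SE 0.51, edgeR adjusted p = 3.85e-04, on 19 UMIs in primitive and 13 in definitive cells), and GYPC, glycophorin C, which anchors the membrane skeleton (1.64). Without barcodes with markers of other cells, ERMAP was at 1.13 under TMM (edgeR adjusted p = 0.119) and 1.93 under library totals (edgeR adjusted p = 0.00677). The only member called higher under TMM was then ICAM4, so the GYPC call ended there as well. RHCE was 0.85 higher (SE 0.18, edgeR adjusted p = 5.72e-04). Without those barcodes it was at -0.23 under TMM (edgeR adjusted p = 0.269) and at 0.60 under library totals (edgeR adjusted p = 0.00246), so its direction depended on the scaling. Its call also ended against definitive cells matched by non-globin UMIs (0.12, edgeR adjusted p = 0.641), with a globin minimum of 50% (0.56, edgeR adjusted p = 0.147) and without genes highest in the remaining barcodes (0.04, edgeR adjusted p = 0.871), all under TMM.

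Other members of this list had similar levels in both classes or were lower in primitive cells. SLC4A1, the band 3 anion exchanger, was at 59.6 and 40.4 in primitive and 55.4 and 39.7 in definitive cells, with a log2 fold change of 0.04 (SE 0.32). Without barcodes with markers of other cells it was at -1.21 under TMM (edgeR adjusted p = 0.00231) and -0.43 under library totals (edgeR adjusted p = 0.345). EPB42, protein 4.2 of the skeleton, was at 88.0 and 98.1 against 76.1 and 107 (0.02, SE 0.26), and without those barcodes at -1.18 under TMM (edgeR adjusted p = 8.19e-05) and -0.36 under library totals (edgeR adjusted p = 0.312). Lower in primitive cells were SLC14A1, the Kidd urea transporter (-1.89, SE 0.36, edgeR adjusted p = 2.77e-04, DESeq2 adjusted p = 0.0576), and TMCC2 (1 UMI in primitive against 127 in definitive cells, ratio 29.0, interval 5.12 to 1156). The SLC14A1 call also ended with a globin minimum of 50% (-0.78, edgeR adjusted p = 0.394). CD59, which shields red cells from complement, was at 201 and 162 against 177 and 186, and the remaining barcodes were higher than both (255 and 267). Under library totals it was called higher without barcodes with markers of other cells (1.36, edgeR adjusted p = 3.95e-05) and against definitive cells matched by non-globin UMIs (0.68, edgeR adjusted p = 0.0302), but not under TMM (0.57 and 0.36, edgeR adjusted p = 0.0673 and 0.283).

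**Figure D5:**
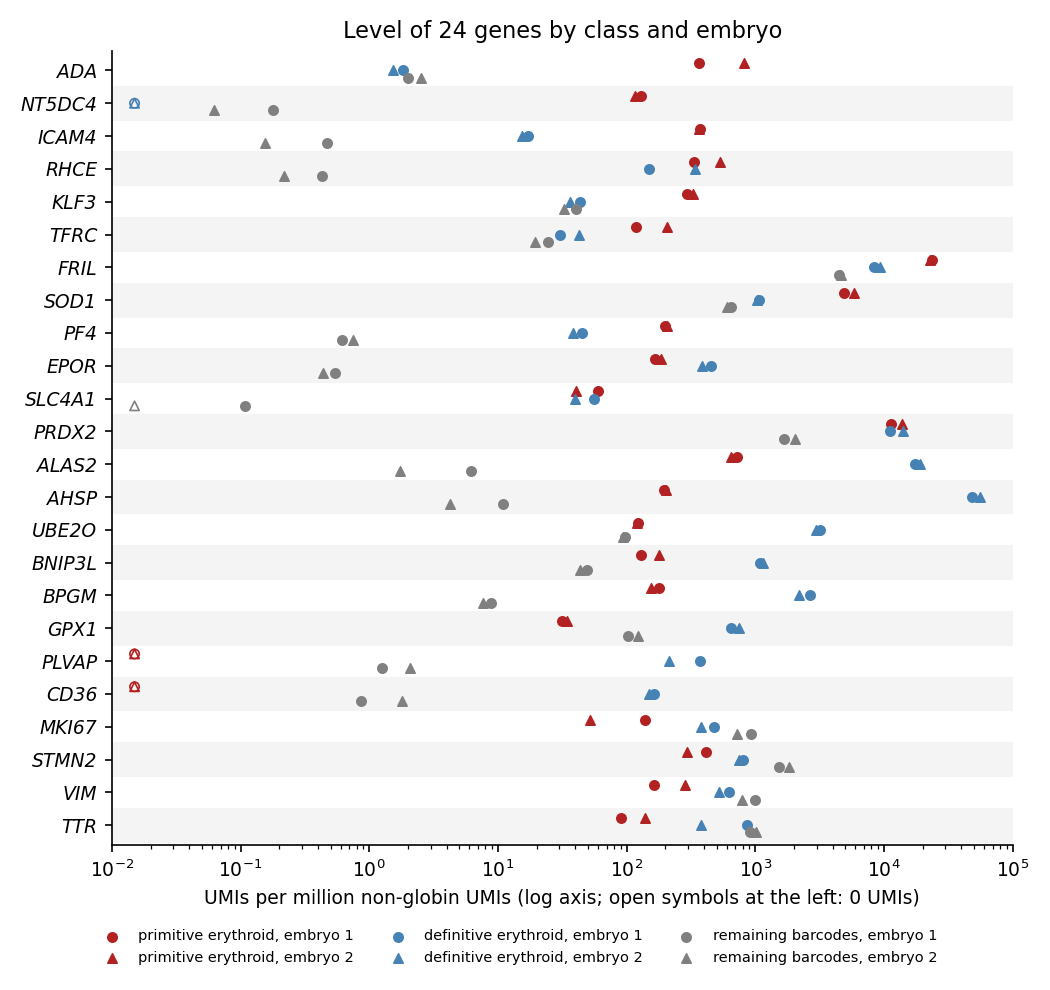
Level of 24 genes (x axis, UMIs per 1000000 non-globin UMIs, log scale) in primitive cells (red), definitive cells (blue) and remaining barcodes (grey), with circles for embryo 1, triangles for embryo 2 and open symbols at the left for 0 UMIs. ADA, ICAM4 and KLF3 are highest in primitive cells, AHSP, ALAS2 and BPGM in definitive cells, and MKI67, STMN2 and VIM in the remaining barcodes, with the primitive cells lowest.

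Enzymes of haem synthesis were mostly lower in primitive cells. Of 18 genes listed, 14 had a model and 11 were tested, of which 6 were lower and 2 higher (22.8% and 23.4% of all genes), with a median log2 fold change of -1.05. ALAS2, the first and rate-limiting enzyme of the pathway in red cells, was at 724 and 652 in primitive cells and at 17322 and 19027 in definitive cells, and at 6.17 and 1.75 in the remaining barcodes. Its log2 fold change was -4.75 (SE 0.09, edgeR adjusted p = 2.66e-19), the classes did not overlap, and both lay far above the remaining barcodes. The later enzymes fell by less on the log2 scale, with ALAD at -2.18, FECH, which inserts the iron, at -1.71 and UROD at -1.05. FAM210B, a mitochondrial protein of terminal haem synthesis, was higher, at 148 and 179 against 17.0 and 35.1 (2.72, SE 0.29, edgeR adjusted p = 1.66e-07), as was the porphyrin transporter ABCB6 (2.01).

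Genes of iron handling were also called in both directions. Of 14 genes listed, 11 had a model and 7 were tested, with 2 higher and 2 lower, shares near those of all genes. TFRC was at 119 and 208 in primitive, 30.4 and 42.8 in definitive and 24.5 and 19.5 in remaining barcodes (log2 fold change 2.04, SE 0.26, edgeR adjusted p = 2.28e-06). The call ended with a globin minimum of 50%, which left 42 primitive cells (1.53, edgeR adjusted p = 0.126). The RNA-binding iron chaperone gene PCBP2 was also higher (1.34), but was at 0.73 against definitive cells matched by non-globin UMIs under TMM (edgeR adjusted p = 0.0957) and 1.06 under library totals (edgeR adjusted p = 0.0125). Without genes highest in the remaining barcodes it was at 0.52 under TMM (edgeR adjusted p = 0.258) and 1.29 under library totals (edgeR adjusted p = 0.00125). Its call also ended with a globin minimum of 50% (1.54, edgeR adjusted p = 0.125). NCOA4, which delivers ferritin to the lysosome to free its iron, was lower, at 153 and 144 against 835 and 716 (-2.45, SE 0.17, edgeR adjusted p = 3.94e-10), as was GLRX5, needed for iron-sulfur clusters (-1.77). ISCU, the scaffold of these clusters and the most abundant member, was at 1362 and 1616 against 1192 and 1510 (0.09), and at 0.55 with at least 200 genes per barcode (edgeR adjusted p = 1.83e-07). Without barcodes with markers of other cells it was at -1.08 under TMM (edgeR adjusted p = 4.51e-13) and -0.26 under library totals (edgeR adjusted p = 0.0353).

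The iron store itself was the most abundant non-globin transcript of primitive cells. No model bears the names FTL or FTH1, and the ferritin light and heavy chains are annotated under their protein entry names FRIL and FRIH, a match made after the values had been seen. FRIL was at 23507 and 22896 in primitive, 8394 and 9298 in definitive and 4470 and 4640 in remaining barcodes, and FRIH at 20686 and 19017 against 6591 and 8547, with 4095 and 4197 in the remaining barcodes. Both were higher in primitive cells, by 1.33 and 1.35 on the log2 scale (SE 0.07 and 0.09, edgeR adjusted p = 3.32e-12 and 1.94e-10). With barcodes bearing markers of other cells left out they were at 0.40 and 0.50 under TMM (edgeR adjusted p = 0.0230 and 0.00386) and at 1.23 and 1.32 under library totals. The FRIL call ended with a globin minimum of 50% (1.03, edgeR adjusted p = 0.0539). Several models share each of these names, so the split of reads among ferritin copies is uncertain.

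The program of late red cell maturation was low in primitive cells. Of 20 genes listed, 16 had a model and 13 were tested, of which 10 were lower and 1, GYPC, was higher (22.8% and 23.4% of all genes), with a median log2 fold change of -2.64. Without barcodes with markers of other cells 12 were tested. Under TMM 11 were lower and 0 higher (30.7% and 27.2% of all genes), and under library totals 11 were lower and 1 higher (15.8% and 49.0%). AHSP, the chaperone that holds free alpha chains, was at 196 and 202 in primitive cells and at 48606 and 55297 in definitive cells, where it was the most abundant non-globin transcript. Its log2 fold change was -8.06 (SE 0.09, edgeR adjusted p = 1.85e-23). The 69 and 35 UMIs in primitive cells came from 13.1% and 8.87% of them, against 3.88% and 1.47% of the remaining barcodes, where AHSP was at 11.0 and 4.24.

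Further genes of this list, UBE2O, BNIP3L and TRIM10, were lower in primitive cells, while MAP1LC3B was not called. UBE2O, a ubiquitin enzyme that removes ribosomal and other proteins from reticulocytes, was at 122 and 121 in primitive against 3169 and 2954 in definitive cells and close to the remaining barcodes at 97.9 and 93.3 (-4.72, SE 0.14, edgeR adjusted p = 2.78e-16). BNIP3L, the receptor for clearing mitochondria, was at 131 and 179 against 1081 and 1156 (-2.95, SE 0.16, edgeR adjusted p = 8.77e-12). TRIM10, a ubiquitin ligase of differentiating red cells, had 1 UMI in primitive and 316 in definitive cells (ratio 72.3, interval 12.9 to 2863). The autophagy gene MAP1LC3B was at 167 and 219 against 224 and 238 and was not past the threshold (-0.35, SE 0.20). With barcodes bearing markers of other cells left out, it was at -1.50 under TMM (edgeR adjusted p = 8.84e-12) and -0.69 under library totals (edgeR adjusted p = 0.00432).

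Several genes with 67 UMIs or more in definitive cells had none in primitive cells. PLVAP, a protein of endothelial fenestrae, had 610 and 140 UMIs in definitive cells (levels of 371 and 214) and 0 in primitive cells, at least 57.2-fold lower against 3 UMIs over both embryos (edgeR adjusted p = 3.55e-10, DESeq2 adjusted p = 0.15). The remaining barcodes were at 1.26 and 2.06. The summed vessel markers were also highest in definitive cells (57.8 and 157), and their part in the PLVAP value was not tested. CD36, a fatty acid receptor also carried by erythroid precursors, had 268 and 98 UMIs against 0 (at least 27.9-fold, edgeR adjusted p = 2.06e-08). RRM2, which supplies deoxynucleotides in S phase, had 255 and 71 against 0 (at least 24.8-fold, edgeR adjusted p = 4.70e-08, DESeq2 adjusted p = 0.233).

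The rest of this group rested on smaller counts. ALOX15, a lipoxygenase that attacks the mitochondria of reticulocytes, had 34 and 98 UMIs in definitive cells and 0 in primitive cells (at least 10.1-fold, DESeq2 adjusted p = 0.347), with 33.7% of those of embryo 2 in 1 cell. ABHD1, GPBAR1 (a bile acid receptor), SULT2B1 (a sterol sulfotransferase), FAM57A, CYB5R1, TKFC and TBCEL were likewise at 0 in primitive cells, with 67 to 117 UMIs in definitive cells and lower bounds between 5.11-fold and 8.92-fold. With a globin minimum of 50% the calls of GPBAR1, SULT2B1, FAM57A and CYB5R1 ended (edgeR adjusted p between 0.0703 and 0.0895). TBCEL was too low to test without barcodes with markers of other cells. Primitive cells gave 525583 non-globin UMIs in all and definitive cells 2298601, so 3 UMIs correspond to a level of 5.71 in the former and 1.31 in the latter.

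Among enzymes of defence against oxidation, calls went in both directions. Of 15 genes listed, 14 had a model and 11 were tested, with 4 higher and 1 lower (23.4% and 22.8% of all genes) and a median log2 fold change of 0.26. PRDX2, the main peroxiredoxin of red cells, was at 11441 and 13748 in primitive and 11198 and 13961 in definitive cells (-0.06, SE 0.06), both far above the remaining barcodes at 1676 and 2049. When barcodes with markers of other cells were left out, it was at -1.19 under TMM (edgeR adjusted p = 2.60e-12) and -0.36 under library totals (edgeR adjusted p = 3.57e-05). SOD1, the cytosolic superoxide dismutase, was higher in primitive cells, at 4859 and 5875 against 1071 and 1037 (2.27, SE 0.09, edgeR adjusted p = 3.30e-14), as were SOD2 (2.10), PRDX6 (2.10) and GPX4, which protects membrane lipids (1.17). GPX4 was at 0.36 under TMM (edgeR adjusted p = 0.0255) and 1.18 under library totals without barcodes with markers of other cells. GPX1, the main glutathione peroxidase of adult red cells, was lower, at 31.2 and 34.6 against 653 and 750 (-4.45, SE 0.24, edgeR adjusted p = 6.55e-12), and below the remaining barcodes at 102 and 123.

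Sugar breakdown and control of oxygen affinity gave 1 gene higher and 4 lower among 9 tested, against 23.4% and 22.8% of all genes (14 of 17 listed had a model). Under library totals without barcodes with markers of other cells, 3 of 7 were higher and 3 lower (49.0% and 15.8% of all genes). BPGM, which makes the bisphosphoglycerate that lowers the oxygen affinity of adult haemoglobin, was at 179 and 156 in primitive and 2646 and 2183 in definitive cells, with 8.87 and 7.67 in the remaining barcodes. The log2 fold change was -3.91 (SE 0.14, edgeR adjusted p = 5.03e-15). PGAM1 (-1.22), LDHB (-1.16) and ENO1 (-0.71) were also lower. The ENO1 call ended without the embryo block (edgeR adjusted p = 0.0886) and, without barcodes with markers of other cells, under library totals (-0.42, edgeR adjusted p = 0.233). The LDHB call ended against definitive cells matched by non-globin UMIs under library totals (-0.37, edgeR adjusted p = 0.227). For PGAM1 and LDHB the remaining barcodes were above both classes. ALDOA was higher (2.24, SE 0.35, edgeR adjusted p = 2.69e-05). Of the gas exchange list only SLC4A1 could be tested, and AQP1, AQP3, AQP9 and CA13 had 0 UMIs in primitive cells.

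Few transcripts of erythroid regulators were captured. Of 16 transcription factors listed, 12 had a model and 3 were tested. KLF3, a repressor that KLF1 switches on in red cells, was at 295 and 329 in primitive, 43.2 and 36.6 in definitive and 40.3 and 32.7 in remaining barcodes (2.85, SE 0.22, edgeR adjusted p = 1.88e-09). TAL1, a founder of the blood lineage, was higher on 15 against 11 UMIs (2.43, SE 0.56, edgeR adjusted p = 1.47e-03). It was too low to test without barcodes with markers of other cells. E2F2, which acts in late erythroid divisions, was lower on 1 against 79 UMIs (ratio 18.1, interval 3.15 to 722). The E2F2 call ended with a globin minimum of 50% (edgeR adjusted p = 0.0869). KLF1, the erythroid master activator of the adult beta gene, had 9 and 1 UMIs in primitive and 3 and 2 in definitive cells and was too low to test, as was IKZF1 (6 against 2 UMIs).

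Genes that control the switch from embryonic or fetal to adult globin were at the edge of detection. Of 11 listed, 9 had a model (none bears the name BCL11A) and 2 were tested. No member was tested without barcodes with markers of other cells or against definitive cells matched by non-globin UMIs, so neither call could be checked there. SOX6, a repressor of embryonic globin, had 2 and 0 UMIs in primitive cells and 67 and 18 in definitive cells, a pooled ratio of 9.72 (interval 2.61 to 81.5, log2 fold change -3.25, edgeR adjusted p = 9.94e-04), with the remaining barcodes at 18.6 and 21.4. ZBTB7A, a repressor of gamma globin, was higher in primitive cells on 17 against 28 UMIs (1.39, SE 0.47, edgeR adjusted p = 0.0218), a call that ended with no filter on low counts (edgeR adjusted p = 0.110), with a globin minimum of 50% (edgeR adjusted p = 0.0507) and, at 0.57, under TMM without genes highest in the remaining barcodes (edgeR adjusted p = 0.430).

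The other 7 of these regulators were not tested. LIN28B, which keeps the fetal program, had 0 UMIs in primitive and 4 in definitive cells. MYB had 1 and 12, IGF2BP1 7 and 26, IGF2BP3 6 and 58, NR2C1 8 and 26, NR2C2 1 and 12, and KLF1 10 and 5. At these counts a difference was not detectable, apart from the KLF1 ratio of 8.75 (interval 2.72 to 32.6), which rests on 9 UMIs of embryo 1.

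EPOR, the receptor for erythropoietin, was the main member captured of the signalling list (7 of 10 had a model, 1 tested). It was at 168 and 185 in primitive, 451 and 383 in definitive and 0.538 and 0.436 in remaining barcodes, and was lower in primitive cells (-1.34, SE 0.19, edgeR adjusted p = 6.95e-06). JAK2, its kinase, had 11 and 21 UMIs, BCL2L1 4 and 36 and PIM1 3 and 9 in primitive and definitive cells. CISH had 0 in primitive cells.

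Genes of cell division were low in primitive cells. Of 15 listed genes of G2 and mitosis, all had a model and 12 were tested, of which 10 were lower and 0 higher (22.8% and 23.4% of all genes), with a median log2 fold change of -1.52. Of 10 tested without barcodes with markers of other cells, 7 were lower under TMM (30.7% of all genes) and 6 under library totals (15.8%), and 0 were higher. MKI67, a marker of cycling cells, was at 139 and 51.9 in primitive, 481 and 376 in definitive and 933 and 718 in remaining barcodes (-2.12, SE 0.22, edgeR adjusted p = 1.84e-07). TOP2A (-1.74), CENPF (-1.96), NUSAP1 (-2.46) and HMGB2 (-0.78) were lower as well, but HMGB2 was at -0.11 without barcodes with markers of other cells under library totals (edgeR adjusted p = 0.706). The summed list reached 16.6% and 14.8% of its level in the remaining barcodes in primitive cells and 46.1% and 43.5% in definitive cells. The neuron markers stood at 31.6% and 23.9% against 59.8% and 46.8% in the same measure.

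Of 15 S phase genes, 12 had a model and 3 were tested, with 0 higher and RRM2 lower (23.4% and 22.8% of all genes), too few to describe the list. MCM7, a subunit of the replicative helicase, was at 88.0 and 63.5 in primitive and 116 and 124 in definitive cells and was not past the threshold (-0.64, SE 0.26). It passed with the remaining barcodes in the same fit (-0.64, edgeR adjusted p = 0.0272). Without barcodes with markers of other cells it was at -0.57 under TMM (edgeR adjusted p = 0.111) and 0.22 under library totals (edgeR adjusted p = 0.593). SLBP, which processes histone transcripts, was at 39.7 and 23.1 against 20.7 and 13.7 (0.84, SE 0.44). MCM3 had 5 and 51 UMIs and UHRF1 3 and 47.

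Ribosomal protein genes were called in both directions. Under the names with RPL or RPS, 36 of 45 were tested, of which 15 were higher and 9 lower (23.4% and 22.8% of all genes), with a median log2 fold change of 0.11, and all ribosomal protein names together, including protein entry names, held 33.2% and 33.1% of the non-globin UMIs of primitive cells against 30.7% and 30.2% of those of definitive cells. RPS24 was at 14098 and 15197 in primitive and 6999 and 6765 in definitive cells (1.03, SE 0.07, edgeR adjusted p = 1.18e-10). It was at 0.35 under TMM and 1.17 under library totals without barcodes with markers of other cells (edgeR adjusted p = 0.0384 and 3.74e-39), and its call ended with a globin minimum of 50% (0.60, edgeR adjusted p = 0.225). RPL36AL (2.14), RPL27 (1.30) and RPL24 (1.23) were also higher. RPS15 was lower, at 6758 and 6355 against 15617 and 15023 (-1.28, SE 0.07, edgeR adjusted p = 4.19e-12). RPL19 was -0.16 (edgeR adjusted p = 0.0491) and, with at least 200 genes per barcode, called in the other direction (0.12, edgeR adjusted p = 0.0196). RPS14 was -0.04. Without barcodes with markers of other cells 7 of 34 were higher and 20 lower under TMM, where 27.2% and 30.7% of all genes were, and 17 were higher and 8 lower under library totals, where 49.0% and 15.8% of all genes were. RPS14 was at -0.91 and -0.08 (edgeR adjusted p = 3.22e-08 and 0.389). Many of these genes have processed copies in the genome, and reads could be split among them.

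Signs of handling stress were mixed. Of 12 listed genes, 7 had a model and 4 were tested. DNAJB1, a heat shock cochaperone, was higher in primitive cells (545 and 444 against 233 and 296, log2 fold change 0.90, SE 0.18, edgeR adjusted p = 2.97e-04), but was at 0.09 (edgeR adjusted p = 0.709) under TMM when genes highest in the remaining barcodes were left out, and at 0.86 under library totals (edgeR adjusted p = 5.66e-07). EGR1 (-1.52), FOS (-1.49) and HSPB1 (-2.80) were lower. The HSPB1 value rests on few cells, since 1 definitive cell held 60.8% of its UMIs in embryo 1 and 76.6% in embryo 2. When barcodes with markers of other cells were left out, HSPB1 was at 22.4 and 7.44 in primitive and 22.0 and 16.8 in definitive cells and was too low to test. For EGR1 and FOS the remaining barcodes were above primitive and definitive cells in embryos 1 and 2, and EGR1 was at 45.4 in primitive cells of embryo 1 and 104 in embryo 2. A single primitive cell held 43.75% and 50% of the EGR1 UMIs of that class in embryos 1 and 2. For FOS the shares of a single cell were 31.25% and 56.25%. Without barcodes with markers of other cells and under library totals EGR1 was at -0.16 and FOS at -0.65 (edgeR adjusted p = 0.753 and 0.322). The FOS call also ended against definitive cells matched by non-globin UMIs under TMM (-0.64, edgeR adjusted p = 0.130). With a globin minimum of 50% it ended at -2.58 (edgeR adjusted p = 0.134). The part of dissociation in these values was not tested.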

How the data were processed

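Per the labels, the authors dissociated the whole brains of 2 embryos, made 1 library of the 10x 3′ kit from each and deposited filtered UMI count matrices. The submitters' processing notes name Cell Ranger 3.1.0, and the gene models are those of the tree shrew assembly TS_2.0. No sequence or annotation of that assembly was used here, so no coordinates are given, and the order of genes is read from the numbers in the model identifiers. The counts are raw and cover 23975 gene models, which were summed by name to 18543 genes, and every barcode held at least 500 UMIs. The barcodes per embryo match the cell numbers in the study's methods, while its text also gives a larger total, and its cell type labels were not used here.

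The erythroid classes, the gene lists and the genes named were chosen with earlier results of these data known. Globins were left out of the sums and library sizes of the comparison, which was made with edgeR 4.0.16 (R 4.3.3, TMM scaling, filterByExpr, quasi-likelihood test) on 4 sums with 1 residual degree of freedom, with the embryo as a block because each embryo gave both classes. Tables were made with Python 3.11.15, numpy 2.4.6, pandas 2.3.3 and scipy 1.17.1. On simulated counts for this comparison (3344 genes) the test recovered 50.5% of the genes changed 2-fold and 92.6% of those changed 4-fold, with 2.17% of its calls false. The simulated classes shared a profile apart from 100 genes changed 2-fold and 100 changed 4-fold, up and down in equal number, without RNA of other cells. In the real fit 46.2% of the genes were called, so the simulation does not give its share of false calls. Between the primitive cells of the 2 embryos, the chi-square of 3266 genes was 2.19 times its degrees of freedom, so the embryos were counted as 2 replicates. No doublet caller was run, and doublets were not tested. The empty range of embryonic share between 10% and 75% cannot show them. A median definitive cell held 7442 and 9065 HBB UMIs, and a median primitive cell 536 and 449.5 UMIs of HBE1 and HBG1. A doublet of both could therefore count as definitive.

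The genes named were the globins, ICAM4 and RHCE, up to 4 highest and up to 4 most changed members of each list, and all globin switch regulators. They also include the 12 with the highest and the 12 with the lowest log2 fold change among models with a gene name. Each of these had an adjusted p under 0.05, at least 20 UMIs in each embryo in the higher class and the same direction in both embryos. FRIL, FRIH, SMOX, MPP1, SLFN14, NAGK, FDX1, PF4, UCP2, SLC25A39, TTR, STMN2, VIM, EIF5A2 and 1 unnamed model were added after their values had been seen. Some members of the lists are not reported here by name. Intervals are exact 95% intervals and, like the limit of 3 UMIs for a count of 0, cover counting error only. TFRC, PF4, AHSP, ALAS2, SOD1 and EIF5A2 by HBE1 share were likewise chosen late. The alternatives were other minimums for the classes and for genes per barcode, barcodes with markers of other cell types left out, definitive cells matched by non-globin UMIs, DESeq2 1.42.0, RLE size factors, library totals, globins kept, no filter on low counts, no block, each embryo alone (values without a test) and the remaining barcodes in the same fit. The alternatives that left out genes highest in the remaining barcodes, left out a single cell, thinned non-globin UMIs, or joined library totals with another change were chosen after seeing the data.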

Additional observations from a re-analysis of the deposited data

How the results depend on the processing

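The rule for the classes set the size of the primitive class. With a globin minimum of 50% only 42 cells remained (29 and 13). Their share of the barcodes that passed it was 1.96% ± 0.283 (mean and SD of the 2 embryos). As means of the 2 embryos, they held 58.4% globin and an HBE1 share of 65.5%, with medians of 3860.5 UMIs, 577.5 genes and 1688.5 non-globin UMIs. With at least 200 genes per barcode, primitive cells were 26.3% ± 7.70 of those that passed the globin minimum (mean and SD of the 2 embryos). Each embryo alone gave 124 to 221 primitive cells. All 86 named calls with a value kept their direction in each embryo alone, which the rule for naming genes partly fixes, and 22 (embryo 2 alone) and 18 (embryo 1 alone) moved by over 1.5-fold. With UMIs in both classes these were CDK1, CENPF, HSPB1, MKI67, SAMHD1, SMOX, TFF3, TTR, VIM and evm.model.chr22.707 in embryo 2, and E2F2, EGR1, HSPB1, SOX6, TMCC2 and TRIM10 in embryo 1.

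Of 821 genes called higher and 800 lower, 250 and 373 were called with the globin minimum of 50%, 309 and 202 with DESeq2 (884 genes got no adjusted p), and 302 and 384 when genes highest in the remaining barcodes were left out (1441 tested). Against matched definitive cells 536 were higher and 559 lower under TMM, and 771 and 371 under library totals. Under library totals, 1048 were higher and 338 lower without barcodes with markers of other cells, and 708 and 241 without genes highest in the remaining barcodes. DESeq2 ended the calls of NT5DC4, PLVAP, RRM2, ALOX15, SLC14A1, PCBP2, ENO1, HMGB2 and RPL19 among the genes named, with adjusted p between 0.0576 and 0.412. Some other named genes got no adjusted p from DESeq2, so it could not judge their calls. Without the replicate block 736 and 687 genes were called, all of them among the calls with the block, and of the named calls those of RHCE (edgeR adjusted p = 0.101), ENO1 (0.0886), EGR1 (0.0537) and RPL19 (0.153) were lost. It changed no other named call.

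Direction changed for RHCE (-0.23 without barcodes with markers under TMM) and RPL19 (0.12 with at least 200 genes) among the called genes named. The RPL19 call also ended with the stricter embryonic share, RLE, library totals, globins kept, no filter and 3 classes (edgeR adjusted p between 0.0568 and 0.351). With the globin minimum of 50%, 14 of the named calls ended. These were TFRC, FRIL, RPS24, SLC14A1, PCBP2, FOS, RHCE, ENO1, ZBTB7A, E2F2, GPBAR1, SULT2B1, FAM57A and CYB5R1. The other changes of sign were in genes not called with all barcodes under TMM. PRDX2 was 0.037 and RPS14 0.19 with at least 200 genes, RPS14 0.013 under library totals and 0.045 with these against matched cells, and MCM7 0.22 without barcodes with markers under library totals. CD59 was 0.57 and 1.36 without those barcodes (TMM and library totals), 0.36 and 0.68 against matched cells, 0.0097 with RLE, 0.034 with library totals and 0.00013 with globins kept. EPB42 was -1.18 and -0.36 without those barcodes, -1.14 and -0.81 against matched cells, -0.80 and -0.028 without genes highest in the remaining barcodes, -0.082 at 50% globin, -0.0013 with at least 200 genes, -0.020 without the block, -0.10 without a filter and -0.018 with 3 classes. ISCU, at 0.55 and past the threshold with at least 200 genes, was -1.08 and -0.26 without those barcodes, -0.24 against matched cells under TMM, -0.72 without genes highest in the remaining barcodes under TMM, -0.70 at 50% globin and -0.037 without a filter. SLC4A1 was -1.21 and -0.43 without those barcodes, -0.89 and -0.57 against matched cells, -0.79 and -0.023 without genes highest in the remaining barcodes, -0.16 at 50% globin and -0.066 without a filter. The cause of these changes was not tested, beyond the shift between the scalings. The class sums held 173262 to 1643629 non-globin UMIs, and a count of 0 over both embryos allows a level of up to 5.71 in primitive cells.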

Other observations

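A gene model without a name, evm.model.chr22.707, was among the most abundant transcripts that set primitive cells apart. Its running number follows those of MT1H and MT1E and was chosen after its value was seen. It was at 2435 and 4756 in primitive cells, 38.3 and 32.1 in definitive cells and 60.3 and 54.8 in the remaining barcodes (UMIs per 1000000 non-globin UMIs in embryos 1 and 2, log2 fold change 6.37, SE 0.17, edgeR adjusted p = 5.18e-17). Its UMIs came from 53 and 17 primitive cells, with 29.3% and 42.4% in a single cell of each embryo, and it was at 1734 and 2772 without these cells.

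Further genes outside the lists, also picked after their values were seen, separated the classes. NAGK, which salvages N-acetylglucosamine, was at 871 and 993 in primitive and 67.5 and 61.1 in definitive cells (log2 fold change 3.76, edgeR adjusted p = 4.91e-13). FDX1, a mitochondrial ferredoxin, was at 301 and 248 against 18.9 and 13.7 (3.98, edgeR adjusted p = 1.18e-10). Lower in primitive cells were MPP1, a scaffold of the red cell membrane, at 25.5 and 11.5 against 770 and 666 (-5.18, edgeR adjusted p = 3.37e-12), and SLC25A39, a mitochondrial glutathione carrier, at 51.1 and 51.9 against 865 and 835 (-4.10, edgeR adjusted p = 3.32e-12). UCP2, a mitochondrial carrier, was at 14.2 and 17.3 against 357 and 388 (-4.63, edgeR adjusted p = 2.29e-10), and SLFN14, a ribosome-associated endonuclease, at 8.51 and 5.77 against 221 and 223 (-4.88, edgeR adjusted p = 4.65e-09). SMOX, spermine oxidase, had 2 UMIs in primitive cells and was at 234 and 111 in definitive cells (-5.64, edgeR adjusted p = 1.22e-08).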
